A study of Drosophila melanogaster with 12 samples.

Results

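Wing imaginal discs of Drosophila larvae that had lost the polarity gene scribble (scrib) were set directly against discs with activated Notch, gene by gene, to find which expression differences belong to loss of epithelial polarity and which to Notch activation. The comparison uses 6 of the 12 libraries of the series, chosen by their labels: 3 of scrib mutant discs (S) and 3 of activated Notch discs (N). A further 3 wild-type condition libraries (WT) show on which side of the normal level each group lies. They were also fitted together with S and N, so they bear on the gene filter, scaling and spread behind each call. S larvae were w- and carried FRT82B scrib1 over the deficiency Df(3R)BSC752, so every cell was mutant and other genes inside the deficiency were present in a single copy. They had no Gal4, Flp or reporter transgene. N larvae were y- and w-, with abxUbx-Flp, Act>y+>Gal4, UAS eGFP, the transgene UAS Nicd, and FRT82B tubGal80 over a plain FRT82B chromosome. Nicd is the free intracellular part of the Notch receptor, and in this genotype it can be made only in cells where Flp has acted, so N levels average over cells with and without it. WT replicate 1 had the same driver chromosomes with + in place of UAS Nicd. The genotype text of WT replicates 2 and 3 lists UAS Nicd, although their condition is given as wild type. All discs were taken 6 days after egg laying and pooled, 60 discs to a library.

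Scrib is a scaffold of the basolateral membrane. Discs without it lose apicobasal organisation and overgrow as disorganised masses, and stress signalling through the JNK kinase and the JAK/STAT cytokines is a known feature of such tissue. Notch is a receptor whose intracellular part, once released, switches on target genes together with the DNA-binding protein Su(H). In the wing disc it acts along the border of dorsal and ventral cells, where it turns on wingless and the wing gene vestigial. Genotype background, driver and lesion differ together between S and N, and their effects cannot be told apart. In bulk RNA, fewer cells of a type and less RNA per cell cannot be told apart either, and p-values measure only the spread between these pools of discs.

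The 9 libraries held 33356794 to 42407447 counts. Levels are given as CPM, read counts relative to the TMM-scaled library size, differences as log2 of S over N with the standard error (SE), and genes count as called where edgeR's quasi-likelihood test gave a p under 0.05 after Benjamini-Hochberg adjustment over all genes. Transcripts of scrib had 208, 207 and 135 CPM in S, 522, 451 and 454 CPM in N and 357, 457 and 375 CPM in WT. Every S library lay below every other library (−1.38 ± 0.18, adjusted p = 9.72e-04), although the call against N was lost with all 12 libraries of the series in the fit (adjusted p = 0.0708). Counts assigned to N were 657, 622 and 300 CPM in S, 2287, 2051 and 2069 CPM in N and 668, 902 and 717 CPM in WT. Here the N libraries stood alone and high (−2.02 ± 0.27, adjusted p = 0.00115), and reads of the Nicd transgene cannot be told apart from those of the gene itself. The eye colour gene w also differed, with a mean of 29.7 CPM in S, 405 CPM in N and 378 CPM in WT, in larvae whose labels differ in the transgenes they carry.

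Some libraries stood apart. S replicate 1 had summed fat body markers of 13490 CPM, against 1567 and 1259 CPM in the other S libraries. N replicate 2 had 3263 CPM of them, against 499 and 363 CPM in the other N libraries. Neuron and glia markers summed to 283, 109 and 144 CPM in S and to about 76 CPM in each N library. Salivary gland markers summed to 44.85 CPM in S replicate 3, 69.4 CPM in WT replicate 1 and 5.64 CPM in WT replicate 2. In every other library their sum was at most 1.16 CPM. Counts also leaned towards long transcripts in S replicate 1 (Spearman correlation of a gene's deviation from its mean with exon length 0.46) and WT replicate 2 (0.42), and towards short ones in S replicate 3 (−0.45) and N replicate 2 (−0.41). The markers taken for the wing disc epithelium itself were vg, nub, ap, sd, wg, shg and crb, several of them patterning genes described below. They were detected in every library, and summed to 1791 to 2042 CPM in S, 3361 to 3856 CPM in N and 2386 to 2792 CPM in WT.

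The lesions differed at a large share of the genes. Of 9225 genes tested, 3046 were called between S and N (33.0%), 1585 of them higher in S (17.2%) and 1461 lower (15.8%). The S and N libraries did not overlap in 3025 of the 3046 called genes, so lack of overlap adds little to a call. Differences of at least 2-fold were found for 630 of the higher and 464 of the lower genes, and the median difference over all genes was 0.04. With library totals in place of TMM that median shifted to −0.09, and the share of calls that were higher in S moved to 34.7% from 52.0%. Calls thinned to 775 higher and 578 lower with all 12 libraries of the series in the fit, to 815 and 790 without N replicate 1, and to 838 and 814 without N replicate 3. Of 202 genes named by rule or by choice that were called, 136 were called under each of the other settings tried, and 55 lost the call with all 12 libraries. No gene was called in the other direction under any of them.

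**Figure D1:**
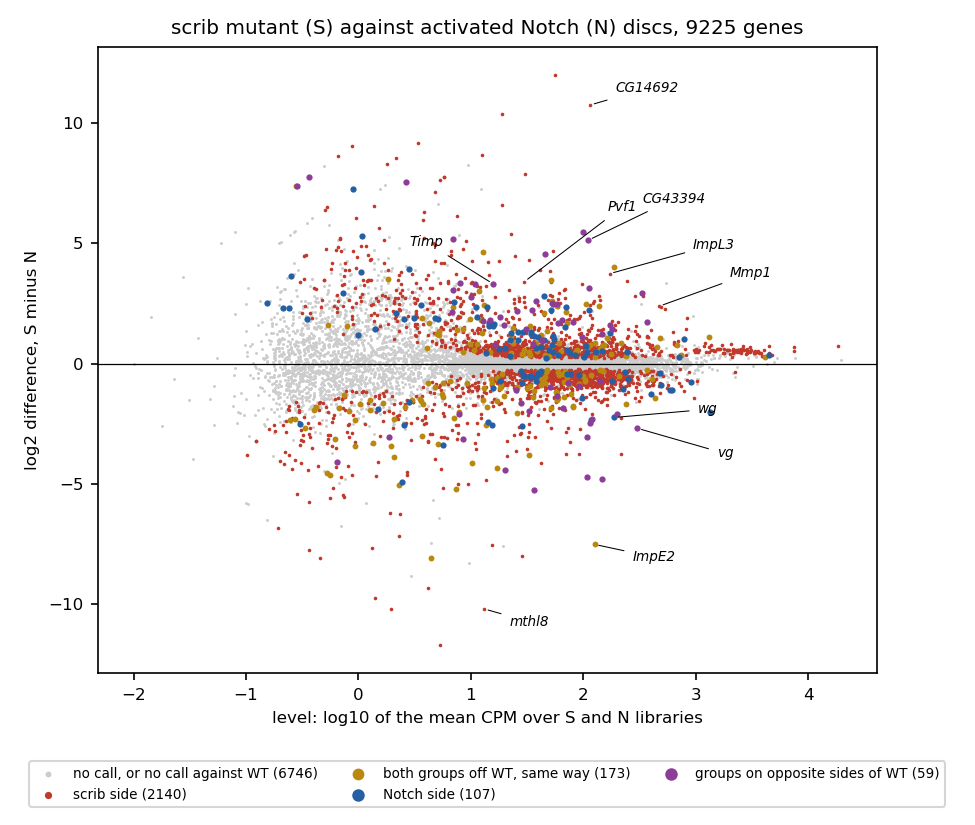
Difference between scrib mutant (S) and activated Notch (N) discs for each of the 9225 genes tested. The horizontal axis is the mean level over the 6 S and N libraries (log10 CPM) and the vertical axis the log2 difference, S minus N; colours mark the side on which a called gene was placed with the WT libraries, and CG14692, at 10.76, and ImpE2, at −7.52, are among the labelled genes.

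Placing the called genes against WT put most of them on the scrib side. A gene was placed there when S differed from both N and WT and N was not called against WT, which held for 1102 genes higher in S and 1038 lower, together 2140. The mirror rule put 39 genes higher in N and 68 lower in N on the Notch side. In 59 genes S and N were called on opposite sides of WT, in 173 on the same side but to a different extent, and in 567 neither was called against WT. The placement is uneven by design. S against WT called 42.9% of genes and N against WT 7.00%, both use the same WT libraries, and a gene not called in N may still differ there from WT. The direct test of S against N, not the placement, is what shows that the groups differ. The scrib side shrank to 615 and 655 genes without N replicate 1, to 635 and 670 without N replicate 3, to 495 and 419 with all 12 libraries and to 456 and 492 with WT replicate 1 alone as WT. On the Notch side leaving out single libraries gave 16 to 65 and 20 to 141 genes, lowest without an N library and highest without S replicate 3. Under 19 other settings the scrib-side placement was kept throughout by 168 of the higher and 190 of the lower genes, and the Notch-side placement by 3 and 6.

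**Figure D2:**
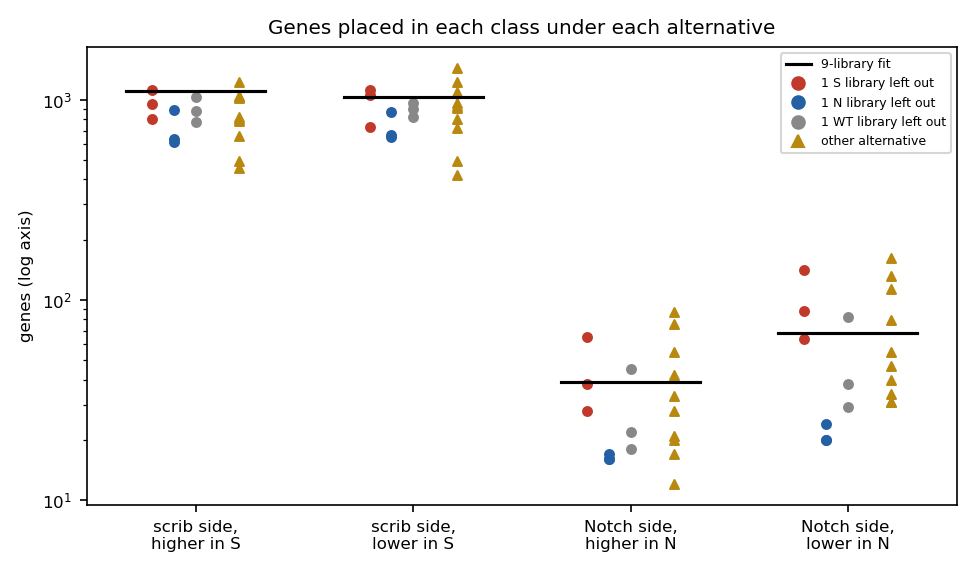
Number of genes (log axis) placed on the scrib side and on the Notch side; the black line is the fit of 9 libraries, circles leave out a single S, N or WT library and triangles are the other alternatives. The fit gave 1102 and 1038 genes on the scrib side and 39 and 68 on the Notch side, where leaving out each library in turn gave 16 to 65 and 20 to 141.

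Genes that report JNK activity were higher in S. Of 12 JNK target genes, 8 were higher in S, 0 were lower, and the median difference was 0.92, against 0.04 over all genes. Against WT, 10 of the 12 were higher in S and 4 in N, beside 2150 and 267 of all 9225 genes. Their median difference from WT was 1.41 in S and 0.32 in N. Those above WT in N were cher, Atf3, Ilp8 and ftz-f1. The serine protease homologue scaf had 497, 579 and 732 CPM in S, 101, 66.4 and 88.2 CPM in N and 177, 139 and 112 CPM in WT. S libraries lay several-fold above all others, while N did not differ from WT by the test (S over N 2.82 ± 0.23, adjusted p = 1.14e-04). The matrix metalloproteinase Mmp1 had 536, 710 and 1142 CPM in S, 199, 116 and 142 CPM in N and 221, 178 and 129 CPM in WT. Again S stood alone (2.39 ± 0.33, adjusted p = 0.00132). The actin crosslinker cher was called above WT in both groups but further in S, with means of 1816 CPM in S, 841 CPM in N and 412 CPM in WT (1.11, adjusted p = 5.22e-04; 0.0787 with all 12 libraries).

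Some other JNK genes were called less firmly or not at all. The phosphatase puc, a feedback inhibitor of JNK, had 93.1, 104 and 133 CPM in S and 69.9, 56.4 and 67.5 CPM in N (0.77, adjusted p = 0.0267), and the ETS factor Ets21C 68.7, 78.4 and 190 CPM in S and 41.8, 23.7 and 30.3 CPM in N (1.81, adjusted p = 0.0172). The libraries did not overlap for either, as for nearly all called genes. Both were placed on the scrib side, a placement kept in 10 of 19 settings for puc and 13 for Ets21C. The call of puc was lost in 7 of 19 settings, among them without S replicate 3 and without each N library (adjusted p up to 0.0842). That of Ets21C was lost without N replicate 2 and without N replicate 3 (up to 0.0659). The proapoptotic gene rpr (mean 36.9 CPM in S and 26.9 CPM in N) was not called. The list held 5 calls without N replicate 1 or 2, 3 without N replicate 3, and 4 with all 12 libraries. Among 13 genes of the JNK cascade itself 4 were higher and 2 lower, beside 17.2% and 15.8% of all genes. The higher ones were led by the TRAF adaptor Traf4 (1.11, adjusted p = 0.00222). The lower ones were the TNF receptor wgn (−0.94, adjusted p = 4.47e-04) and the kinase hep.

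Secreted ligands of the JAK/STAT pathway were higher in S than in N. The cytokine upd1 had 47.8, 57.8 and 102 CPM in S, 32.4, 22.4 and 25.5 CPM in N and 8.95, 9.38 and 9.41 CPM in WT. Both groups were called above WT, and S exceeded N (1.37 ± 0.26, adjusted p = 0.00578). For upd2 the values were 13.9, 19.7 and 72.5 CPM in S and 12.1, 6.16 and 5.07 CPM in N, with 3.47, 2.69 and 1.04 CPM in WT. For upd3 they were 17.9, 23.3 and 63.8 CPM in S and 17.7, 9.70 and 10.2 CPM in N, with 2.87, 3.24 and 1.77 CPM in WT. N was called above WT for upd3 and not for upd2. Both were called between S and N (adjusted p = 0.0396 and 0.0447), but S replicate 3 was far above the other S libraries, and without it or without any one N library neither call held (adjusted p up to 0.134 and 0.142). Of the 7 ligands, receptor and transducers, 4 were higher and 2 lower, with a median of 1.37 that was 0.73 without S replicate 3. The calls fell to 2 higher and 1 lower without S replicate 3, N replicate 1 or N replicate 2, and to 1 and 1 without N replicate 3. The relaxin-like hormone Ilp8, which delays metamorphosis when discs are damaged, reached 319, 516 and 727 CPM in S and 348, 208 and 189 CPM in N, against 6.21, 2.53 and 2.19 CPM in WT. The lesions were not told apart there (1.07 ± 0.43, adjusted p = 0.0883).

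Ligands for receptor tyrosine kinases were higher in S. Of 10 FGF and PDGF/VEGF-like signals and their receptors, 9 were higher in S and 1 lower, with a median of 1.63, and 8 or 9 were higher in every setting tried. Pvf1, a ligand of the PDGF/VEGF-type receptor Pvr, had 40.5, 46.8 and 76.7 CPM in S, 6.80, 4.66 and 4.01 CPM in N and 10.8, 9.85 and 5.12 CPM in WT. S libraries were all high and N overlapped WT (3.41 ± 0.37, adjusted p = 4.36e-04). Pvf2 differed by 2.66 and the receptor Pvr by 0.92. The FGF ligand bnl had 25.4, 25.5 and 18.1 CPM in S and 6.43, 7.74 and 5.37 CPM in N (1.82, adjusted p = 3.55e-04), although the call was lost with all 12 libraries (adjusted p = 0.0526). The FGF ligand ths had 258, 189 and 110 CPM in S and 46.7, 47.0 and 44.0 CPM in N (2.02, adjusted p = 9.32e-04). The exception was btl, the receptor for bnl and a tracheal marker, which was lower in S (−0.80, adjusted p = 0.0165; the call was lost in 6 settings, among them without S replicate 2, N replicate 1 or N replicate 3, with an adjusted p up to 0.109). Summed tracheal markers were 1917 to 2332 CPM in S, 1251 to 1432 CPM in N and 1570 to 1862 CPM in WT. Singly they went both ways, with 3 of 7 higher in S than in N, 3 lower and a median of 0.32. The part of tracheal cells in these values was not tested.

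**Figure D3:**
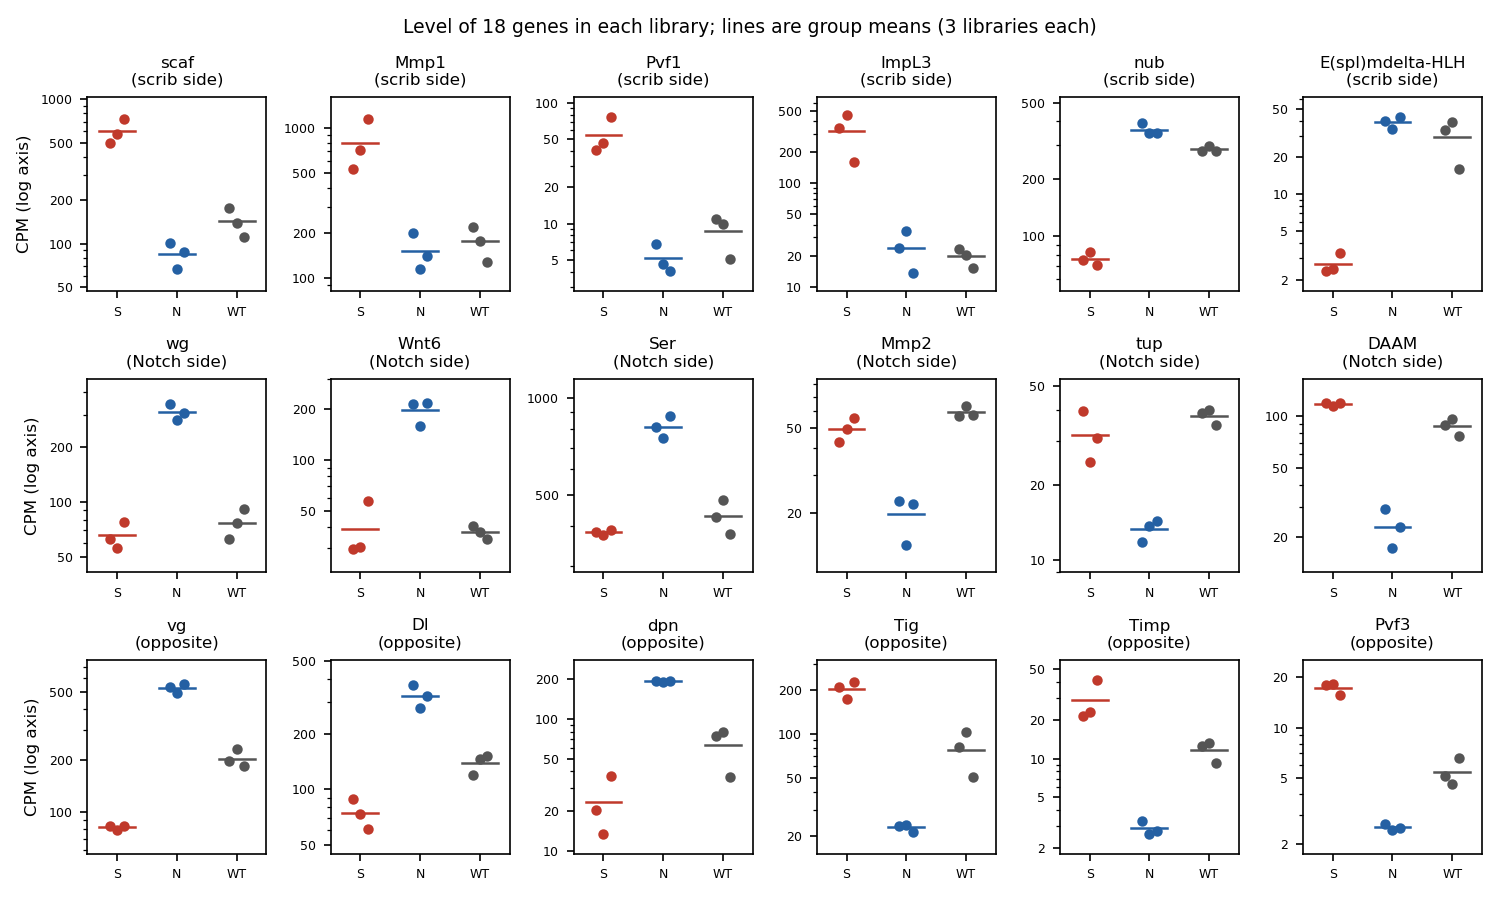
Level of 18 named genes in each S, N and WT library (CPM, log axis; 1 point per library, lines at the group means). Examples lie on the scrib side (scaf, Mmp1, Pvf1, ImpL3, nub), on the Notch side (wg, Wnt6, Ser, Mmp2, tup, DAAM) and with S and N on opposite sides of WT (vg, Dl, Tig, Timp, Pvf3).

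The extracellular matrix separated the lesions in both directions from WT. Of 18 basement membrane genes and matrix proteases 12 were higher in S and 0 lower, with a median of 0.97; 8 were higher with all 12 libraries. The integrin ligand Tig had 208, 172 and 225 CPM in S, 23.5, 23.8 and 21.1 CPM in N and 80.3, 102 and 50.5 CPM in WT. S lay above WT, N below it, and no libraries overlapped (3.14 ± 0.24, adjusted p = 9.23e-05). The metalloproteinase inhibitor Timp behaved alike, at 21.7, 23.4 and 40.8 CPM in S, 3.27, 2.60 and 2.74 CPM in N and 12.6, 13.2 and 9.24 CPM in WT (3.32 ± 0.28, adjusted p = 1.25e-04). The collagen IV chains Cg25C and vkg differed less, by 1.24 and 1.12, with Cg25C at 207 CPM in S, 87.5 CPM in N and 130 CPM in WT.

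Other matrix genes moved in a single lesion. The proteoglycan perlecan, encoded by trol, was on the scrib side with 1028, 1003 and 659 CPM in S, 350, 444 and 281 CPM in N and 347, 457 and 384 CPM in WT (1.32, adjusted p = 0.00289). So was the integrin subunit mys, with means of 489 CPM in S and 276 CPM in N (0.83, adjusted p = 6.08e-04). Both lost the call with all 12 libraries (adjusted p = 0.0668 and 0.109). The second matrix metalloproteinase, Mmp2, was instead on the Notch side. It had 42.8, 49.2 and 55.8 CPM in S, 22.8, 14.1 and 21.9 CPM in N and 56.9, 62.9 and 57.1 CPM in WT. Only the N libraries were low (1.33 ± 0.18, adjusted p = 0.00117), and this placement was kept in 19 of 19 settings. The laminin chain LanA, at 806 CPM in S and 1253 CPM in N, was not called (adjusted p = 0.0723).

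Most blood cell markers, like most of the matrix genes, were higher in S than in N. Of 10 haemocyte markers 8 were higher in S and 0 lower, and their sum was 195, 440 and 756 CPM in S, 102, 87.3 and 111 CPM in N and 138, 115 and 213 CPM in WT. Hml, a secreted clotting protein of haemocytes, had 39.1, 113 and 173 CPM in S and 16.1, 11.01 and 15.9 CPM in N (2.92 ± 0.49, adjusted p = 0.00315). The phagocytosis receptor NimC1 had 4.10, 9.04 and 27.1 CPM in S and 0.322, 0.241 and 0.521 CPM in N (5.19, adjusted p = 0.00168). For both genes every S library was higher than every N library but S spread widely, S replicate 3 being the highest and S replicate 1 the lowest, and no marker was at 0 in any S library, while 1 was at 0 in N replicate 2. Haemocytes are also a source of collagen IV, and the part of their RNA in the matrix values was not tested.

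Markers of other cells gave less. Of 8 fat body markers 1 was called, the fatty acid synthase FASN1 (1.91, adjusted p = 0.00343), and the list's median of 1.94 was −1.05 without S replicate 1. Of 8 neuron and glia markers the glial receptor moody was higher (2.15, adjusted p = 5.65e-04). The synaptic gene brp was called at 7.27, on 73.6 CPM in S replicate 1 alone, with 0.0965 and 0.112 CPM in the other S libraries and 0.134 to 0.198 CPM in N; without that library its difference was −0.57 and not called. Adult muscle precursor markers summed to 201 to 231 CPM in S and 202 to 213 CPM in N, both below the 322, 338 and 279 CPM of WT.

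**Figure D4:**
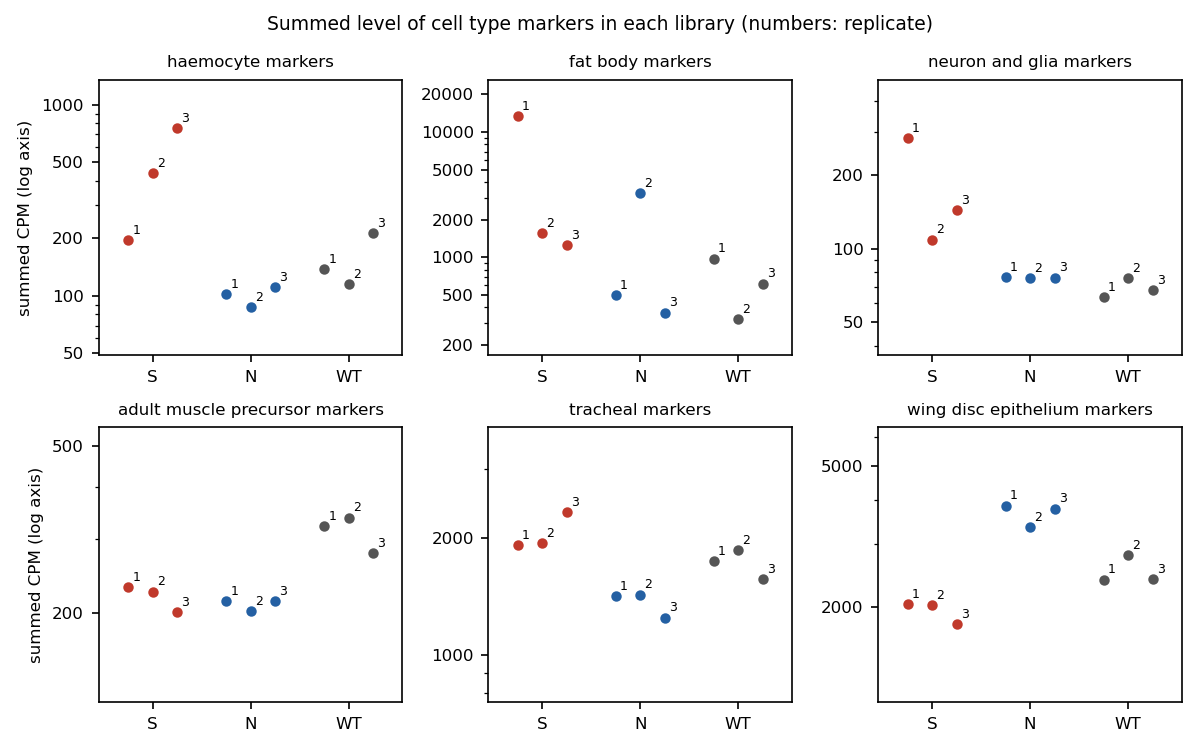
Summed level of each cell type marker list in the S, N and WT libraries (CPM, log axis, 1 point per library). Fat body markers reach 13490 CPM in S replicate 1, haemocyte markers are highest in S replicate 3 at 756 CPM, and disc epithelium markers are lower in S than in N.

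Genes of metabolism, defence and protein synthesis on the scrib side included some of the largest differences. Lactate dehydrogenase, listed as ImpL3, had 342, 455 and 162 CPM in S, 23.7, 34.6 and 13.6 CPM in N and 23.2, 20.3 and 15.3 CPM in WT. Only S was high (3.74 ± 0.46, adjusted p = 7.24e-04). Of the 13 genes of glycolysis and lactate metabolism 1 was higher, ImpL3 itself, and 3 were lower, with Ald at 157 CPM in S, 308 CPM in N and 377 CPM in WT (−0.97, adjusted p = 0.00167). ImpL2, a secreted antagonist of insulin-like peptides, had 896, 706 and 856 CPM in S and 215, 118 and 146 CPM in N (2.36, adjusted p = 3.97e-04). Its exons share 61.9% of their bases with CG46460 on the same strand, so the reads may belong to either. The peptidoglycan recognition protein PGRP-SA was at 76.5 CPM in S, 5.21 CPM in N and 2.91 CPM in WT (3.88, adjusted p = 0.00102). Of 15 Toll and Imd genes 4 were higher and 1 lower, beside 17.2% and 15.8% of all genes. Without S replicate 3, 2 of the 15 were higher.

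Of 85 cytosolic ribosomal protein genes 72 were higher in S and 0 lower, by a median of 0.54. RpL41 was typical of those with the smallest p, at 5254, 5891 and 5825 CPM in S, 3157, 3803 and 3195 CPM in N and 3766, 3411 and 3040 CPM in WT (0.74 ± 0.11, adjusted p = 0.00204). N and WT libraries overlapped. The counts were sensitive to the setting: 46 were higher without N replicate 1 or without N replicate 3, 48 with a correction for exon length, where the median was 0.33, and 0 with all 12 libraries, where it was 0.53. Of 22 ribosome biogenesis genes 2 were higher and 0 lower, with a median of 0.08. Against WT, 17 of them were higher in S and 3 in N, beside 2150 and 267 of all 9225 genes. Their median difference from WT was nearly alike, 0.44 in S and 0.36 in N.

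The genes with the largest scrib-side differences included several of unknown function. CG14692 had 205, 226 and 261 CPM in S, 0.0990, 0.0268 and 0.249 CPM in N and 0.210, 0.157 and 0.189 CPM in WT (10.76, adjusted p = 3.68e-06). It was high in all S libraries and close to 0 in all others. CG12911 had 43.3, 16.1 and 279 CPM in S, with 3 counts in the N libraries together, and CG31601 had 28.9, 22.5 and 61.1 CPM in S, likewise with 3 counts in N. The odorant-binding protein gene Obp44a had 178 CPM in S replicate 1 but 0.611 and 0.672 CPM in the other S libraries, and its call was lost without S replicate 1 and without each N library (adjusted p up to 0.201). At the other end, the sugar receptor gene Gr64a had no count in S and 11.4, 14.3 and 6.48 CPM in N, at least 375-fold lower in S against a floor of 3 counts over the group. The G protein-coupled receptor gene mthl8 had 2 counts in S and 25.6, 26.5 and 26.6 CPM in N. CG13053 had 0.209, 0.418 and 0.0560 CPM in S and 45.3, 56.7 and 69.7 CPM in N. Mean WT levels of these 3 genes were 8.33, 27.2 and 32.3 CPM, and none was called in N against WT.

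Genes that pattern the wing were lower in S than in N. Of 19 genes of wing pouch and margin patterning 12 were lower in S and 0 higher, with a median of −1.01 that was −0.63 without S replicate 3, and 5 were lower with all 12 libraries. Against WT, 11 of the 19 were lower in S, while 5 were higher and 3 lower in N. Over all 9225 genes these counts were 1805, 267 and 379. The list's median difference from WT was −0.51 in S and 0.34 in N. The POU factor nub, which marks the wing pouch, had 75.6, 82.5 and 70.7 CPM in S, 392.4, 346 and 347 CPM in N and 279, 298 and 279 CPM in WT. S was low, and N above WT without being called (−2.25 ± 0.09, adjusted p = 4.19e-06). The homeobox gene Dll had 31.1, 29.2 and 13.5 CPM in S, 173, 132 and 179 CPM in N and 92.4, 98.3 and 111 CPM in WT (−2.71, adjusted p = 4.34e-04). The T-box factor bi was lower by −1.88 on the log2 scale.

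Lower levels in S than in N were not limited to the pouch. Of 9 Hedgehog and compartment selector genes 5 were lower and 0 higher, among them the posterior selectors inv (−1.44, adjusted p = 2.30e-04) and en (−1.13, adjusted p = 0.00147) and the ligand hh (−1.45, adjusted p = 3.96e-04). For this list a correction for exon length gave 4 lower and 3 higher, and all 12 libraries 3 lower and 0 higher. The homeobox gene al, of the notum and distal appendages, had 6.12, 5.86 and 2.91 CPM in S, 56.6, 51.9 and 65.0 CPM in N and 70.3, 71.2 and 67.8 CPM in WT (−3.54 ± 0.26, adjusted p = 6.26e-05). It was near its WT level in N. In the notum and hinge list as a whole, 4 of 16 genes were lower and 1 higher, beside 15.8% and 17.2% of all genes. Of 20 Wingless receptors, transducers and feedback genes 10 were lower and 0 higher, with a median of −0.39; a correction for exon length gave 8 lower and 3 higher. Sums of all disc epithelium markers were lower in S than in N too, with WT between them, as given above. That list includes vg, nub, sd and wg, themselves among the results, so its sum is no separate measure of how much epithelium was present. The part of the amount of epithelium in these values was not tested.

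Notch target genes differed in more than a single way. Of 11 genes of the Enhancer of split complex, whose HLH repressors and Bearded-family proteins are classic Notch targets, 6 were lower in S and 0 higher, with a median of −1.63. E(spl)mdelta-HLH had 2.35, 2.44 and 3.33 CPM in S, 39.7, 34.1 and 42.8 CPM in N and 33.4, 39.0 and 16.2 CPM in WT (−3.84, adjusted p = 1.32e-04). The difference from N came with a low level in S, and N overlapped WT. E(spl)m2-BFM, at 14.3 CPM in S, 139 CPM in N and 76.9 CPM in WT, was also placed on the scrib side. E(spl)m8-HLH was placed on the Notch side, with 8.34, 7.85 and 8.40 CPM in S, 42.1, 40.2 and 64.9 CPM in N and 15.9, 17.9 and 5.73 CPM in WT (−2.58, adjusted p = 0.00197), in 11 of 19 settings. E(spl)m4-BFM was above WT in both, with 10.7, 14.8 and 13.8 CPM in S, 29.99, 23.2 and 19.8 CPM in N and 8.79, 8.02 and 7.29 CPM in WT (−0.89, adjusted p = 0.00789). WT replicate 3 was the lowest WT library for each of the 4 genes named here, and without it 10 of the 11 were lower in S.

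The ecdysone response also separated the lesions. Of 22 ecdysone response genes 10 were lower in S and 1, ImpL2, higher, with a median of −0.58; it was −0.25 without S replicate 2 and −0.31 without N replicate 1, and 4 genes were lower with all 12 libraries. The transcription factor br had 660, 556 and 354 CPM in S, 1558, 1307 and 1363 CPM in N and 1396, 1898 and 1685 CPM in WT (−1.43 ± 0.23, adjusted p = 0.00204). N stayed at WT levels. ImpE2 was below WT in both but to very different depths, with 0.888, 1.42 and 1.82 CPM in S, 338, 93.2 and 325 CPM in N and 2857, 2992 and 2815 CPM in WT (−7.52 ± 0.57, adjusted p = 8.20e-05). Another gene of the same hormone response, ImpE1, was at 44.5, 63.5 and 68.5 CPM in S, 76.0, 39.0 and 60.5 CPM in N and 342, 429 and 378 CPM in WT. Both groups were far below WT and their libraries overlapped (0.01, adjusted p = 0.985). The BTB factor chinmo, which marks the younger larval state, was at 287, 276 and 191 CPM in S, 214, 243 and 178 CPM in N and 22.8, 50.1 and 29.8 CPM in WT, likewise high in both and overlapping (0.25, adjusted p = 0.515). The RNA-binding protein Syp, which marks the later state, was lower in S, with 404 CPM in S, 838 CPM in N and 971 CPM in WT (−1.05, adjusted p = 0.0108). With all 12 libraries the calls of br and Syp were lost (adjusted p = 0.0675 and 0.154).

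**Figure D5:**
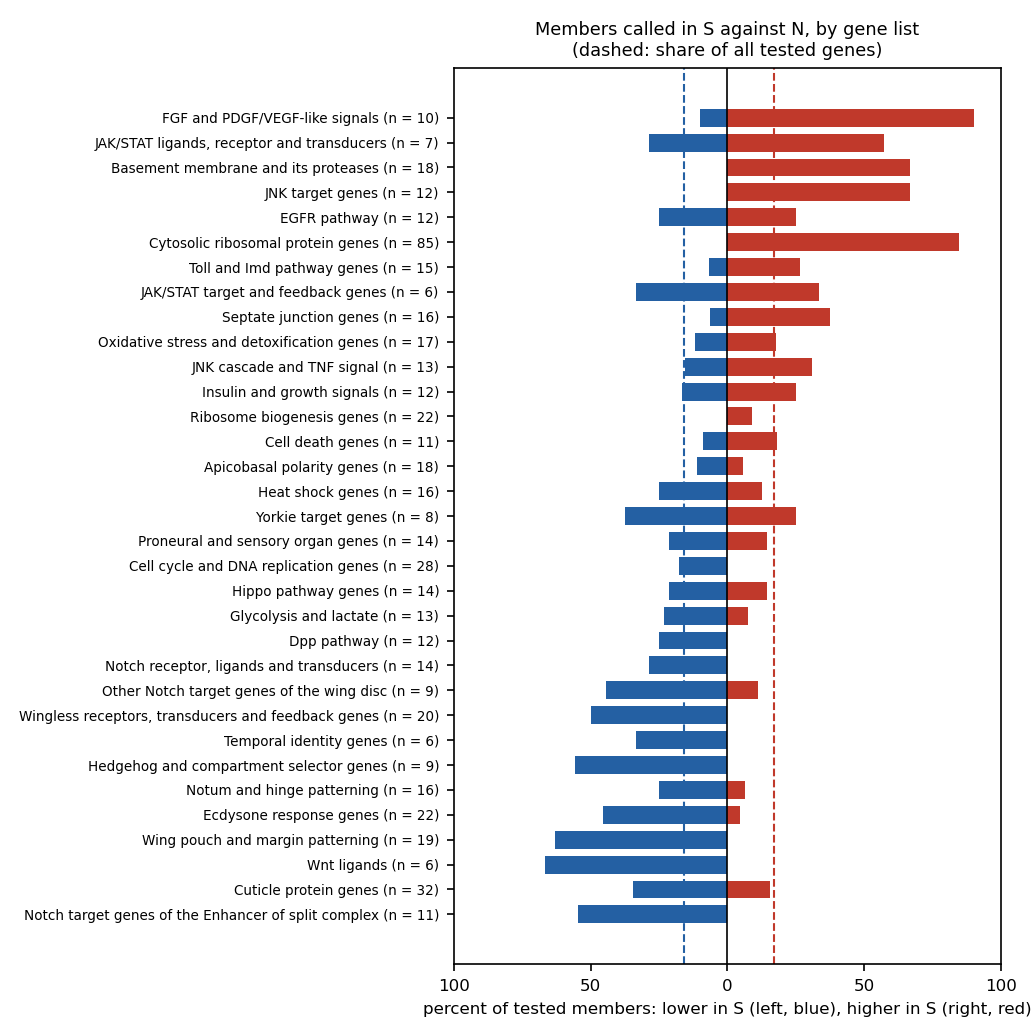
Percent of the tested members of each gene list called higher in S than in N (red, right) or lower (blue, left), sorted by the list's median log2 difference; dashed lines mark all tested genes, 17.2% and 15.8%. FGF and PDGF/VEGF-like signals (9 of 10 higher) lie at the top, and wing pouch (12 of 19 lower) and Enhancer of split genes (6 of 11 lower) near the bottom.

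The Notch side held the Wnt ligands wg and Wnt6 and the Notch ligand Ser. Of 6 Wnt genes 4 were lower in S and 0 higher, with a median of −1.04, and of 14 genes for the Notch receptor, its ligands and transducers 4 were lower and 0 higher. Of those 4, N and Ser were placed on the Notch side, dx on the scrib side, and Dl had S and N on opposite sides of WT. Counts assigned to N can include reads of the Nicd transgene, as given above, so its call is no separate result on the receptor gene. Over all genes, 15.8% were lower in S. The ligand wg (chromosome arm 2L, positions 7307159 to 7316265 of the BDGP6 assembly, plus strand) had 63.2, 56.5 and 77.8 CPM in S, 345, 281 and 308 CPM in N and 62.9, 77.2 and 91.1 CPM in WT. S overlapped WT, and N was several-fold above both (−2.24 ± 0.17, adjusted p = 8.20e-05). Its neighbour in the genome Wnt6 had 29.9, 30.6 and 56.9 CPM in S, 214, 159 and 219 CPM in N and 40.9, 37.6 and 34.3 CPM in WT (−2.33 ± 0.26, adjusted p = 4.68e-04). The pattern was that of wg. Ser, a ligand of Notch, had 383, 375 and 390 CPM in S, 809, 749 and 876 CPM in N and 426, 482 and 379 CPM in WT (−1.08, adjusted p = 2.42e-04). The cofactor sd, the DNA-binding partner of Vestigial, had 400, 396 and 368 CPM in S, 867, 768 and 872 CPM in N and 428, 493 and 451 CPM in WT (−1.11, adjusted p = 1.14e-04). For Ser and sd the call was lost with all 12 libraries (adjusted p = 0.0774 and 0.0838).

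Other genes high in N alone were the Frizzled-family receptor fz3, at 52.8 CPM in S, 144 CPM in N and 68.3 CPM in WT (−1.44, adjusted p = 8.66e-04), and the intraflagellar transport gene Oseg5, at 0.973 CPM in S, 10.2 CPM in N and 1.17 CPM in WT (−3.39, adjusted p = 5.46e-04). The HLH protein emc, which restrains proneural factors, had 377, 335 and 338 CPM in S, 697, 580 and 654 CPM in N and 332, 360 and 417 CPM in WT (−0.88, adjusted p = 9.63e-04). With wg and tut, emc was 1 of 3 genes that kept this placement in all 19 settings. The margin gene ct had 36.3, 24.7 and 13.1 CPM in S, 95.0, 42.9 and 80.3 CPM in N and 25.2, 34.4 and 24.2 CPM in WT. It was called between S and N (−1.56, adjusted p = 0.0172) but in neither against WT, and not without S replicate 2, N replicate 1 or N replicate 3 (adjusted p up to 0.131).

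Genes low in N alone included regulators of shape and signalling. The formin DAAM, which assembles actin filaments, had 118, 114 and 118 CPM in S, 28.9, 17.3 and 22.9 CPM in N and 89.1, 95.6 and 76.9 CPM in WT. N was low and S slightly above WT without being called (2.34 ± 0.18, adjusted p = 8.20e-05). The matrix protein thrombospondin, Tsp, had 239, 222 and 101 CPM in S, 40.2, 36.9 and 41.8 CPM in N and 130, 142 and 126 CPM in WT (2.24, adjusted p = 8.46e-04). The LIM-homeobox gene tup, which specifies the notum, had 39.8, 24.8 and 30.9 CPM in S, 11.9, 13.7 and 14.4 CPM in N and 38.9, 40.1 and 34.9 CPM in WT (1.26, adjusted p = 0.00109). Only the N libraries were low.

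Some genes of the muscle precursors that lie under the notum were lower in N than in S. The zinc finger factor zfh1 had 39.4, 46.4 and 39.2 CPM in S, 18.2, 15.6 and 16.2 CPM in N and 40.4, 44.8 and 37.4 CPM in WT (1.32, adjusted p = 1.25e-04). The mesodermal factor twi was below WT in both and further in N, at 30.4 CPM in S, 16.8 CPM in N and 39.7 CPM in WT (0.85, adjusted p = 0.00222). The FGF receptor htl, used by these cells, had 52.0, 53.7 and 30.6 CPM in S, 17.1, 16.1 and 16.9 CPM in N and 28.3, 28.6 and 30.3 CPM in WT (1.45, adjusted p = 0.00103). For htl S was called above WT and N below it, a position kept in 4 of 19 settings. The whole list gave 3 higher and 2 lower of 8 genes with a median of 0.73. Its sum was nearly the same in S and N and below WT in both, as given above. Against WT, 3 of the 8 genes were lower and 1 higher in S, and 4 were lower and 0 higher in N. The cell adhesion gene kirre was lower in S (7.50 CPM in S, 46.6 CPM in N and 33.7 CPM in WT). The part of these cells in the Notch-side values was not tested.

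In 59 genes the lesions lay on opposite sides of WT, 37 with S higher and 22 with S lower. The wing selector vg had 82.5, 78.7 and 83.5 CPM in S, 536, 491 and 554 CPM in N and 197, 232 and 185 CPM in WT. The 3 groups were fully separate (−2.69 ± 0.10, adjusted p = 4.03e-06), and vg was the single gene of its direction to keep this position in all 19 settings. The Notch ligand Dl had 89.2, 74.0 and 60.9 CPM in S, 370, 278 and 324 CPM in N and 120, 147 and 152 CPM in WT (−2.12, adjusted p = 1.06e-04). The neural stem cell factor dpn, a Notch target there, had 20.2, 13.5 and 37.0 CPM in S, 195, 190 and 195 CPM in N and 73.9, 79.6 and 36.4 CPM in WT (−3.03, adjusted p = 0.00107). S replicate 3 and WT replicate 3 overlapped, the position was kept in 10 settings, and an antisense gene covers 59.3% of the exon bases of dpn. The channel gene bib, known for its neurogenic mutants, was at 39.2, 35.8 and 30.3 CPM in S, 217, 167 and 207 CPM in N and 114.8, 135 and 103 CPM in WT (−2.49).

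Besides Tig and Timp, genes above WT in S and below it in N included the ligand Pvf3, with 17.9, 18.3 and 15.8 CPM in S, 2.65, 2.41 and 2.49 CPM in N and 5.10, 4.57 and 6.56 CPM in WT (2.78 ± 0.19, adjusted p = 4.86e-05). The secreted pherokine Phk-3 had 564, 580 and 638 CPM in S, 81.9, 82.1 and 68.3 CPM in N and 182, 169 and 148 CPM in WT (2.94, adjusted p = 4.03e-06). CG43394, of unknown function, had 215, 244 and 191 CPM in S, 5.96, 6.94 and 5.59 CPM in N and 17.6, 23.7 and 19.9 CPM in WT (5.13, adjusted p = 3.44e-06). Each had 3 groups without overlap. The HLH repressor h was at 100 CPM in S, 28.8 CPM in N and 61.4 CPM in WT (1.80, adjusted p = 1.11e-04). Phk-3, Tig and CG43394 kept the position in all 19 settings, together with CG6739, Cyp9c1 and nvy.

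A further 173 genes were called on the same side of WT in both lesions and also between them. S exceeded N in 59 of those that were above WT in both, and N exceeded S in 10. The lipid phosphate phosphatase wun2 had 156, 199 and 338 CPM in S, 52.2, 39.4 and 40.9 CPM in N and 18.4, 18.1 and 14.7 CPM in WT (2.39 ± 0.28, adjusted p = 5.51e-04). The glutathione transferase GstD3 was at 91.0 CPM in S, 14.97 CPM in N and 1.99 CPM in WT (2.60, adjusted p = 0.00110). The chitin deacetylase-like gene Cda5 was the other way round, at 37.3 CPM in S, 97.8 CPM in N and 19.5 CPM in WT (−1.39, adjusted p = 0.00267). Of genes below WT in both, 88 were lower in S and 16 lower in N. Those lower in N included eya, a cofactor of the homeodomain protein So, at 12.4 CPM in S, 4.50 CPM in N and 23.7 CPM in WT (1.46, adjusted p = 0.00285).

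The remaining lists described here gave mixed or few calls, beside 17.2% of all genes higher and 15.8% lower. Of 18 apicobasal polarity genes 1 was higher, l(2)gl (0.51, adjusted p = 0.00309), and 2 lower, scrib and yrt, with a median of 0.01. With all 12 libraries these calls were lost, with an adjusted p of 0.368 for l(2)gl; yrt also lost it without N replicate 1, without N replicate 3 or with WT replicate 1 alone as WT (adjusted p up to 0.233). Of 28 cell cycle and DNA replication genes 5 were lower and 0 higher, with a median of −0.17, and of 14 Hippo pathway genes 2 were higher and 3 lower. Among 11 cell death genes 2 were higher and 1 lower. Of 12 EGFR pathway genes 3 were higher and 3 lower, the feedback inhibitors sty (1.34, adjusted p = 0.00261) and aos (1.32, adjusted p = 0.00867) among the higher and the receptor Egfr (−0.85, adjusted p = 0.00318) among the lower, a call that was lost with all 12 libraries (adjusted p = 0.108). For aos it was N that left the WT range, with 37.7 CPM in S, 15.1 CPM in N and 40.5 CPM in WT. Of 32 cuticle protein genes 11 were lower and 5 higher, with a median of −1.20, and heat shock genes split 2 higher and 4 lower of 16.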

How the data were processed

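Per the labels' protocols, RNA was extracted with TRIzol and sequenced from TruSeq Stranded mRNA libraries. The deposited table holds unnormalised read counts, 1 column for each library and 1 row for each gene symbol. TopHat2 2.0.9, Bowtie2 2.1.0, HTSeq, edgeR, DESeq and the build dm6 are named in the submitters' processing notes. Which annotation and strand setting the counting used is not given in these sources. Without strand, reads of overlapping genes on opposite strands cannot be told apart. Of 17716 symbols, 13320 matched the Ensembl annotation of BDGP6 directly, 4215 through a synonym and 181 not at all; 4155 had 0 counts in all 9 libraries. No replicate files were identical.

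Counts of the 9 S, N and WT libraries were filtered with filterByExpr, scaled by TMM and fitted with edgeR 4.0.16 in R 4.3.3 (quasi-likelihood, 1 coefficient per group, 6 residual degrees of freedom), with Benjamini-Hochberg adjustment over the 9225 genes tested. Libraries of activated Notch with scrib1 were left out of this fit. CPM are TMM-scaled. Alternatives were RLE size factors, library totals, DESeq2 1.42.0, no filter, all 12 libraries, the compared groups alone, a replicate block, an exon length correction (lowess span 0.3), WT replicate 1 alone, S replicate 1 and N replicate 2 both left out, and each library left out in turn, 19 settings in all. The tests were tried on simulated counts first. Replicate numbers did not pair S and N libraries: same-numbered libraries did not deviate together (r = −0.36, −0.43 and −0.03 across genes).

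The comparison, the gene lists and the rule for named genes were chosen with earlier results of these data known. The rule took, from each of the scrib-side and Notch-side classes, the 8 genes with the largest difference, at a mean of at least 5 CPM and without overlap of S and N libraries, so that this separation is no further support for them. In each list it took up to 4 genes by smallest adjusted p, and a fixed set of genes such as scrib, wg and upd1 was added. Named after their values were seen were mys, trol, Mmp2, ths, Pvr, bib, Phk-3, CG43394, CG6739, Cyp9c1, nvy, tut, wun2, GstD3, Cda5, eya and hep.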

Additional observations from a re-analysis of the deposited data

How the results depend on the processing

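Counts are given here as genes higher and lower in S than in N, then scrib side higher and lower, then Notch side higher and lower; the reported values are 1585, 1461, 1102, 1038, 39 and 68. With library totals 1050 genes were higher in S, and 658 were on the scrib side, higher. With DESeq2 the Notch side held 76 and 162, and with the compared groups alone 87 and 132. With all 12 libraries the 6 counts were 775, 578, 495, 419, 17 and 34. The replicate block gave 1108, 1088, 781, 803, 21 and 31. Replicate numbers do not pair the libraries, so these calls did not replace those of the reported fit. The block is still counted as a setting wherever calls or placements are given as kept or lost across settings. An exon length correction gave 114 genes for Notch side, lower. Leaving out S replicate 1 and N replicate 2 together gave 20 and 40 on the Notch side. WT replicate 1 alone as WT gave 456 and 492 on the scrib side and 12 and 31 on the Notch side. Leaving out each library in turn gave 815 to 1714 higher, 790 to 1643 lower, 615 to 1117 and 655 to 1125 on the scrib side, and 16 to 65 and 20 to 141 on the Notch side. RLE size factors and no filter left each of the 6 counts within 1.5 times, and the causes of these shifts were not tested.

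The sign of 11 differences between S and N changed in at least 1 setting; of these only brp was called in the reported fit, and the causes were not tested. Leaving out each library in turn, the log2 difference ran from −0.57 to 7.88 for brp, −1.13 to 3.04 for Eip93F, −0.67 to 6.29 for Fbp2, −1.33 to 5.75 for Lsp1alpha, −1.83 to 6.22 for Lsp1beta and −0.77 to 6.54 for Lsp1gamma, each lowest without S replicate 1. For the salivary gland markers it ran from −2.61 to 7.84 for Eig71Ee and −0.28 to 5.63 for Sgs3. It ran from −0.96 to 7.04 for Sgs5 and −1.04 to 8.57 for Sgs8. Each of these was lowest without S replicate 3. Without S replicate 1 and N replicate 2 together, brp was at −0.66 and Eip93F at −0.93. ImpE1, close to 0 throughout, ran from −0.22 to 0.24 without single libraries. It was at −0.015 with RLE size factors and with DESeq2, −0.13 with library totals, −0.033 with no filter, −0.012 with the compared groups alone, −0.048 without S replicate 1 and N replicate 2, and −0.00 with all 12 libraries. Of the other values of named genes, 3878 kept their direction and side of the threshold, 278 lost the call and 31 gained it. With 7.00% of genes called in N against WT, 13 of 39 and 18 of 68 genes on the Notch side kept their class in at least 15 of 19 settings, as did 6 of 22 and 13 of 37 with S and N on opposite sides of WT, and 570 of 1102 and 596 of 1038 on the scrib side.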
